A study of Mus musculus with 4 samples.

Results

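The RNA modification N6-methyladenosine (m6A) is written, removed and read by a small group of proteins, and 10 genes of that group were examined in sorted mouse spermatocytes. They were picked by gene name, with no threshold on a measured value, although earlier results of these data were known: the writers *Mettl3*, *Mettl14* and *Wtap*, the erasers *Alkbh5* and *Fto*, the readers *Ythdc1* and *Ythdf2*, and the meiotic set of *Ythdc2*, *Meioc* and *Rbm46*. All 10 were found among the 24411 genes listed in every library, 9 under their own symbols and *Meioc* under its older symbol *Gm1564*, matched through the RefSeq synonyms. All 10 were among the 14512 genes that were tested because their mean reached 1 TPM.

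Writers place a methyl group on selected adenosines of newly made RNA, erasers take it off, and YTH-domain readers bind the methylated base and steer splicing, export or decay of the RNA. In the male germ line, loss of the eraser ALKBH5 impairs spermatogenesis, and the helicase YTHDC2 with its partner MEIOC is needed for germ cells to leave mitosis and carry on with the meiotic programme. RBM46 is a germ-cell RNA-binding protein that works with YTHDC2 and MEIOC.

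RNA-seq was done on GFP-positive male germ cells sorted from testes at postnatal day 18. There were 2 *Zfp541*+/- samples (controls 1 and 2) and 2 samples labelled *Zfp541* KO (1 and 2). All 4 carried *Rec8-3xFLAG-HA-p2A-GFP*, a knock-in allele that makes GFP together with the meiotic cohesin REC8 and so marks meiotic prophase cells. The knock-in was homozygous in both samples labelled *Zfp541* KO. It was heterozygous in 1 control and homozygous in the other, and the labels do not say which control is which. The control matched for knock-in dose therefore cannot be picked out, and dose could not be fitted. The controls carried the *Zfp541* deletion on a single chromosome and were not wild type, and the strain is labelled as C57BL/6 and CBA mixed although the study's methods name C57BL/6 alone. The values are TPM, a transcript abundance that is corrected for gene length and scaled to 1 fixed sum per library, so depth is unknown and no counting error can be given. Each group holds 2 samples, so p-values rest on the spread within these 4 samples. In limma each gene's variance was also drawn towards a trend over all tested genes.

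The targeted gene was not lower in the libraries that should lack it. *Zfp541* stood at 112 and 72.2 TPM in the *Zfp541*+/- libraries, against 136 and 151 TPM in those labelled *Zfp541* KO (log2 difference 0.67, SE 0.28, adjusted p = 0.371 from limma). Every direction given here therefore rests on the library labels, and these per-gene values do not separate the deleted exons from others. The controls also stood further from each other (Euclidean distance 153 on the log2 scale over all tested genes) than the libraries labelled *Zfp541* KO did (49.2) or than any control did from them (111 to 133). Of the marker genes of the sorted cells, the synaptonemal complex gene *Sycp3* was high, at 1108 and 1263 TPM in the controls, against 2093 and 2196 TPM in the other group, whereas *Rec8* itself was low, at 7.05 and 27.9 TPM and at 27.7 and 19.4 TPM. Pachytene markers ranged widely, from *Hist1h1t*, a testis-specific linker histone, at 1.00 to 2.55 TPM over the 4 libraries, to *Ldhc*, a germ-cell lactate dehydrogenase, at 768 to 3659 TPM. The study describes a large part of the GFP-positive cells as pachytene spermatocytes with the histone H1t that *Hist1h1t* encodes. How the low *Hist1h1t* values relate to the number of such cells sorted was not tested.

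Transcripts of 9 of the 10 genes were higher where the label was *Zfp541* KO, with both of those libraries above both controls, but none of the 10 passed an FDR of 0.05. For these 9 genes the libraries labelled *Zfp541* KO thus also exceeded the control of the same knock-in dose, whichever it is. That comparison rests on a single control, and the part of knock-in dose in the values was not tested. *Fto*, the exception, overlapped between the groups and changed sign with the scaling. The log2 differences ran from 0.17 for *Fto* to 0.99 for *Alkbh5*, with a median of 0.81 on the log2(TPM + 1) scale. Adjusted p-values from limma, Benjamini-Hochberg adjusted over all 14512 genes, lay between 0.310 and 0.746. At an unadjusted p under 0.05 there were 8 of the 10 on the higher side, all but *Mettl3* and *Fto*.

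These counts stand against a background that leaned the same way. No gene of the 14512 passed the FDR (0.0%), and the smallest adjusted p was 0.310, while 2091 genes reached an unadjusted p under 0.05. Of all genes tested, 10.7% were higher at an unadjusted p under 0.05. In 38.6% both libraries labelled *Zfp541* KO were above both controls, and in 12.1% both were below. Among the 6360 genes whose mean reached 30 TPM, a level chosen after the values were seen because every member exceeded it, the share above was 43.3%. Under median-ratio scaling and quantile normalization 8 members were above, with *Mettl3* then overlapping, against 22.6% and 27.8% of all genes. The median difference of all genes was 0.28, and 9 of the 10 members were above it, by 0.14 for *Mettl3* to 0.70 for *Alkbh5*, while *Fto* was 0.11 below it. In bulk RNA, fewer cells of a type and less RNA per cell cannot be told apart.

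**Figure D1:**
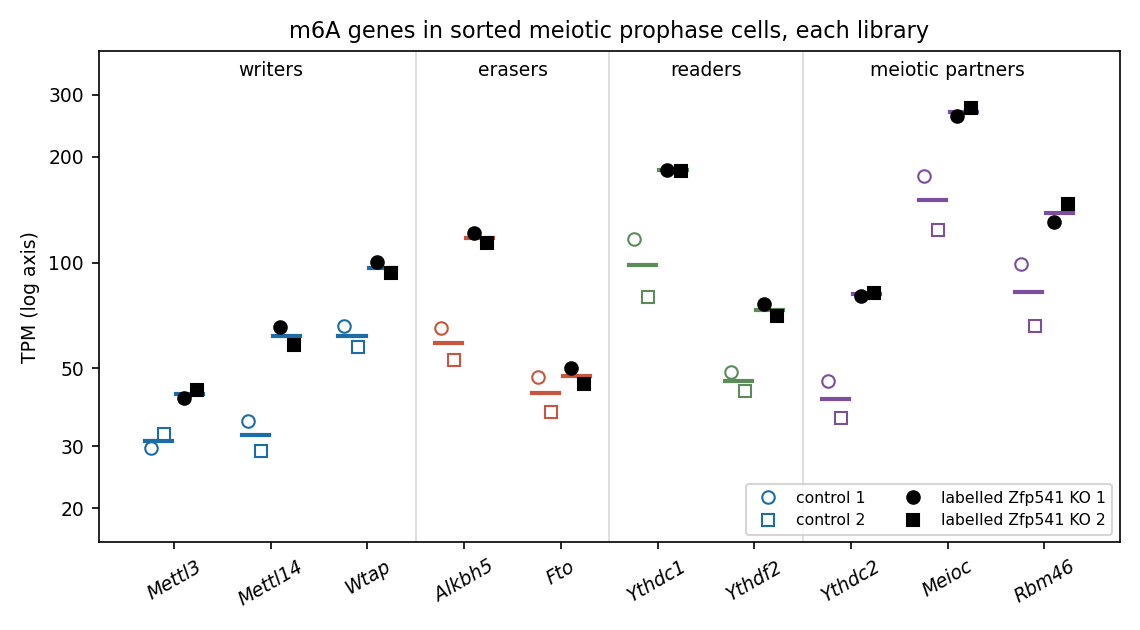
TPM (log axis) of each of the 10 m6A genes in each library, with open symbols for controls 1 and 2, filled symbols for the libraries labelled *Zfp541* KO 1 and 2, and lines for the mean of each group (n = 2). Filled symbols lie above open ones for 9 genes, *Fto* overlaps, and control 2 lies below control 1 for all genes but *Mettl3*.

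The writers are encoded on 3 chromosomes. In GENCODE M21 (GRCm38, mm10) *Mettl3*, the catalytic subunit, lies at chr14:52294841-52305128 on the minus strand, *Mettl14*, its RNA-binding partner, at chr3:123368297-123386108 on the minus strand, and *Wtap*, the adaptor that holds the pair in nuclear speckles, at chr17:12966796-12994169 on the minus strand. *Mettl3* was at 29.8 and 32.5 TPM in the controls, against 41.1 and 43.3 TPM in those labelled *Zfp541* KO. *Mettl14* was at 35.5 and 29.1 TPM in the controls, against 65.6 and 58.1 TPM in the other group. *Wtap* was at 66.0 and 57.6 TPM, against 100.2 and 93.3 TPM. None of the 3 overlapped between the groups (38.6% of all genes were above). The catalytic subunit showed the smallest separation, which was lost under median-ratio scaling and quantile normalization.

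The group means of *Mettl3* were 31.2 ± 1.96 and 42.2 ± 1.57 TPM (SD, n = 2), a log2 difference of 0.43 (SE 0.21, adjusted p = 0.419 from limma). *Mettl14* had means of 32.3 ± 4.50 and 61.8 ± 5.27 TPM, a ratio of 1.92 and a log2 difference of 0.92 (SE 0.22, adjusted p = 0.310 from limma). *Wtap* had means of 61.8 ± 5.97 and 96.8 ± 4.90 TPM and a log2 difference of 0.64 (SE 0.19, adjusted p = 0.319 from limma). *Mettl3* sat near the middle of the distribution of all genes, with 60.3% of genes showing a smaller difference, compared with 88.0% for *Mettl14* and 74.6% for *Wtap*. *Mettl3* was also the single member that was not lower in control 2 than in control 1.

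The erasers parted ways. *Alkbh5*, which encodes an m6A demethylase of the nucleus, lies at chr11:60536381-60558512 on the plus strand and was at 65.3 and 52.9 TPM in the controls, against 122 and 113 TPM in those labelled *Zfp541* KO. *Fto*, which encodes a demethylase that also acts on methylated adenosine next to the RNA cap, lies at chr8:91313525-91668439 on the plus strand. Its values were 47.3 and 37.7 TPM in the controls, against 50.1 and 45.3 TPM in those labelled *Zfp541* KO. The *Alkbh5* groups were well separated, whereas for *Fto* control 1 stood above the library labelled *Zfp541* KO 2.

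The mean of *Alkbh5* was 59.1 ± 8.83 TPM in the controls and 117 ± 5.81 TPM in the other group (SD, n = 2), 1.99 times as much, with a log2 difference of 0.99 (SE 0.20, adjusted p = 0.310 from limma), and 90.5% of genes had a smaller one. *Fto* had means of 42.5 ± 6.80 and 47.7 ± 3.40 TPM and a log2 difference of 0.17 (SE 0.23, adjusted p = 0.746 from limma), which turned negative under median-ratio scaling (-0.16), quantile normalization (-0.10) and length correction (-0.022). The single differences between a library labelled *Zfp541* KO and a control ran from -0.06 to 0.40 for *Fto*. Under both of the scalings the libraries labelled *Zfp541* KO even lay below both controls for *Fto*, whereas the difference of *Alkbh5* stayed positive in all 13 alternatives, from 0.65 to 1.14.

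*Alkbh5* and *Fto* also had the largest and the smallest difference of the 10, and the 250 bases before their RefSeq start sites (GRCm38.p6, plus strand) are shown for this reason. The *Alkbh5* stretch at chr11:60537433-60537682 falls in the first intron of a noncoding GENCODE transcript and before the start of the protein-coding one, and the *Fto* stretch is at chr8:91313275-91313524, directly before the annotated gene. Capitals mark a GC box (GGGCGG) or a CCAAT box, searched on both strands.
Alkbh5: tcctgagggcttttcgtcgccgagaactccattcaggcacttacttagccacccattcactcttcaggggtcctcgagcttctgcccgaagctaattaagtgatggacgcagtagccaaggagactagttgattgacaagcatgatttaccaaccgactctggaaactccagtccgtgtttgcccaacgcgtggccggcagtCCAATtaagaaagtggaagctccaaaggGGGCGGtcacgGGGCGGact
Fto: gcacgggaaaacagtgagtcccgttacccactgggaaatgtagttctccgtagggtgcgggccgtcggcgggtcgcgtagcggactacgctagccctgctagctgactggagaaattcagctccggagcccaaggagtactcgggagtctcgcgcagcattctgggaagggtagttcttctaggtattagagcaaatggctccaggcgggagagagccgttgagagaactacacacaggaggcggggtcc
The *Alkbh5* stretch held 2 GC boxes and 1 CCAAT box, 14 CpG dinucleotides and 54.0% G and C. The *Fto* stretch had 18 CpG dinucleotides and 59.2% G and C, and neither motif was found in it. Of the 8 members with an entry in that table, 5 had a GC box (*Alkbh5*, *Meioc*, *Wtap*, *Ythdc1* and *Ythdf2*) and 4 a CCAAT box (*Alkbh5*, *Meioc*, *Rbm46* and *Wtap*), compared with 32.9% and 34.5% of all 27025 promoters of that length. The cyclic AMP response element TGACGTCA was in 0 of the 8 and in 1.62% of all promoters, and the E-box CACGTG was in *Rbm46* alone and in 6.05% of all. None of the 4 motifs was found in *Fto* and *Mettl3*, while *Mettl14* and *Ythdc2* had no entry. The share of all promoters with none of the 4 was not computed, and a link between motifs and differences was not tested. G and C content ranged from 50.4% to 68.0% over the 8, with a median of 52.0% over all promoters.

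Readers were higher as well. *Ythdc1*, the nuclear reader tied to splicing and export (chr5:86804221-86836659, plus strand), was at 117 and 79.9 TPM in the controls, against 184 and 182 TPM in those labelled *Zfp541* KO. *Ythdf2*, the cytoplasmic reader that recruits deadenylases and speeds decay (chr4:132184912-132212303, minus strand), was at 48.9 and 43.1 TPM against 76.3 and 70.4 TPM. Neither overlapped between groups (38.6% of all genes were above), and the controls differed far more for *Ythdc1*, by 1.46 times, than for *Ythdf2*, by 1.13 times. The means of *Ythdc1* were 98.3 ± 25.9 and 182.7 ± 1.37 TPM (SD, n = 2), with a log2 difference of 0.91 (SE 0.25, adjusted p = 0.315 from limma). Those of *Ythdf2* were 46.0 ± 4.09 and 73.3 ± 4.19 TPM, with a log2 difference of 0.66 (SE 0.20, adjusted p = 0.319 from limma). A smaller difference was seen in 87.8% of genes for *Ythdc1* and in 76.0% for *Ythdf2*.

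The meiotic set included the most abundant of the 10 transcripts. *Meioc*, the partner of YTHDC2 (chr11:102663716-102682237, plus strand), was at 177 and 124 TPM in the controls, against 262 and 275 TPM in those labelled *Zfp541* KO. *Ythdc2*, the RNA helicase with a YTH domain, was at 46.0 and 36.1 TPM in the controls, against 80.5 and 81.9 TPM in the other group. *Rbm46* (chr3:82837228-82876483, minus strand) was at 99.0 and 66.0 TPM, against 130 and 147 TPM. All 3 were separated between the groups on the higher side (38.6% of all genes), with control 1 the nearer control each time.

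*Ythdc2* had means of 41.0 ± 6.95 and 81.2 ± 1.01 TPM (SD, n = 2), a ratio of 1.98 and a log2 difference of 0.98 (SE 0.22, adjusted p = 0.310 from limma). *Meioc* had means of 150.2 ± 37.2 and 268 ± 9.33 TPM and a log2 difference of 0.85 (SE 0.24, adjusted p = 0.317 from limma). *Rbm46* had means of 82.4 ± 23.3 and 138 ± 11.9 TPM and a log2 difference of 0.77 (SE 0.27, adjusted p = 0.333 from limma). The controls differed from each other by 1.50 times for *Rbm46* and by 1.27 times for *Ythdc2*. The difference of *Rbm46* moved with the control that was kept, to a log2 value of 1.06 without control 1 and 0.48 without control 2.

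By role, the median log2 difference was 0.64 for the writers, 0.58 for the erasers, 0.79 for the readers and 0.85 for the meiotic set. The roles overlapped in range and were not tested against each other. On the TPM scale the order of levels in the controls was *Meioc*, *Ythdc1*, *Rbm46*, *Wtap*, *Alkbh5*, *Ythdf2*, *Fto*, *Ythdc2*, *Mettl14* and *Mettl3*. Neighbours in this order did not overlap between *Meioc* and *Ythdc1*, between *Alkbh5* and *Ythdf2* and between *Ythdc2* and *Mettl14*, and all other neighbours did. In the libraries labelled *Zfp541* KO *Meioc*, *Ythdc1* and *Rbm46* again led, followed by *Alkbh5*, *Wtap*, *Ythdc2*, *Ythdf2*, *Mettl14*, *Fto* and *Mettl3*, and no neighbours overlapped. *Fto* stood above *Mettl14* in both controls and below it in both other libraries.

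The 2 controls were not alike for these genes. In log2 terms the median of the 10 was 0.16 above the control mean in control 1 and 0.16 below it in control 2, and it was 0.77 and 0.84 above it in the libraries labelled *Zfp541* KO. The corresponding medians of all tested genes were 0.18, -0.18, 0.31 and 0.26. In control 2, 9 of the 10 members were below the control mean, in control 1 only *Mettl3* was, and in the other libraries none was. When control 1 was left out, 8 of the 10 members and 6985 of the 14512 genes passed the FDR in limma, and when control 2 was left out, 7 members and 4123 genes did. In these fits the spread came from the libraries labelled *Zfp541* KO alone. When either of those was left out instead, 0 members passed (adjusted p = 1.0 from limma for each).

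Marker genes of stage and of other cell types also differed between the libraries. The summed TPM of 10 leptotene and zygotene markers was 2396 and 3066 in the controls, against 4817 and 5067 in those labelled *Zfp541* KO. Of the 10, 8 did not overlap on the higher side (38.6% of all genes), and the median log2 difference was 0.92. *Spo11* (-0.16) and *Rec114* (0.37) overlapped. Under median-ratio scaling 5 of the 10 were above and 1 below, with a median of 0.58. This sum was mostly *Sycp3*, *Hormad1* and *Sycp1*, and the study also stained SYCP3 and SYCP1 proteins in pachytene nuclei. For 10 pachytene markers the sum was 6665 in control 1 and 3214 in control 2, against 2338 and 3222 in the others. Their median log2 difference was -0.51. Under median-ratio scaling it was -0.85, with 7 of the 10 below and 1 above. Without that scaling 4 did not overlap on the lower side (*Ccna1*, *Ldhc*, *Pgk2* and *Spata16*), where 12.1% of all genes lay. On the higher side 1 did not overlap (*Mybl1*), against 38.6% of all genes. On the log2(TPM + 1) scale the widest of these gaps was in *Spata16*, at 207 and 76.3 TPM in the controls, against 4.42 and 13.6 TPM. The 5 macrophage markers summed to 2045 TPM in control 1 and 21.6 TPM in control 2, and to 1687 and 1251 TPM in those labelled *Zfp541* KO. The 6 Leydig cell markers summed to 3603 and 19.4 TPM in the controls and to 392 and 606 TPM in the others. The 9 spermatogonial markers summed to 269 and 814 TPM in the controls and to 475 and 396 TPM, and the 7 Sertoli markers to 1137 and 1594 TPM and to 1740 and 1353 TPM. The 6 round spermatid markers were scarce, at 17.5 and 13.9 TPM in sum in the controls, against 28.7 and 28.7 TPM. No marker of these 7 lists was at 0 in all 4 libraries. The round spermatid sum was mostly *Spaca1*, at 7.34 and 13.9 TPM in the controls, against 27.0 and 26.6 TPM, and *Prm1*, *Prm2*, *Tnp1* and *Acrv1* were at 1.48 TPM or below throughout. The leptotene and zygotene sum separated the groups upward, as 9 of the 10 m6A genes did, and the part of stage or of other cells in the m6A values was not tested.

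Ratios of TPM between members within a library do not depend on a scale factor applied to the whole library. The log2 differences of ratios given here were taken from log2(TPM + 1) values, which are not fully free of it. *Alkbh5* was 1.38 and 1.40 times *Fto* in the controls and 2.43 and 2.50 times *Fto* in the libraries labelled *Zfp541* KO. The ratio was thus nearly the same within each group, at 1.39 ± 0.0149 and 2.47 ± 0.0541 (SD, n = 2), and it differed by 0.82 on the log2 scale. The exact two-sided permutation p was 0.333, the smallest that 2 against 2 samples can give.

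*Mettl14* relative to *Mettl3* was 1.19 and 0.895 in the controls and 1.60 and 1.34 in the others, a log2 difference of 0.49 without overlap (exact permutation p = 0.333), which turned to -0.029 after length correction. *Wtap* relative to *Mettl3* overlapped, at 2.22 and 1.77 and at 2.44 and 2.16 (exact permutation p = 0.667). The helicase and its partner kept a narrow ratio, with *Ythdc2* at 0.260 and 0.292 of *Meioc* in the controls, against 0.308 and 0.298 in those labelled *Zfp541* KO, a log2 difference of 0.12 that turned to -0.067 after length correction. *Rbm46* relative to *Ythdc2* was 2.15 and 1.83 against 1.62 and 1.79, a log2 difference of -0.21 that turned to 0.32 after length correction. *Ythdf2* relative to *Ythdc1* was 0.420 and 0.540 against 0.415 and 0.387, a log2 difference of -0.25 that shrank to -0.064 after length correction, with overlap. The last 3 ratios did not overlap between groups, and each had an exact permutation p of 0.333. With a pseudocount of 5 the exact permutation p was 0.667 for *Ythdc2*/*Meioc* and for *Rbm46*/*Ythdc2*. Leaving out control 1 or control 2 moved most of these pairs, with values of 0.69 and 0.29 for *Mettl14*/*Mettl3*, 0.37 and 0.055 for *Wtap*/*Mettl3*, 0.038 and 0.21 for *Ythdc2*/*Meioc*, -0.09 and -0.33 for *Rbm46*/*Ythdc2*, and -0.43 and -0.07 for *Ythdf2*/*Ythdc1*. *Alkbh5*/*Fto* stayed at 0.81 and 0.83, and at 0.73 after length correction.

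**Figure D2:**
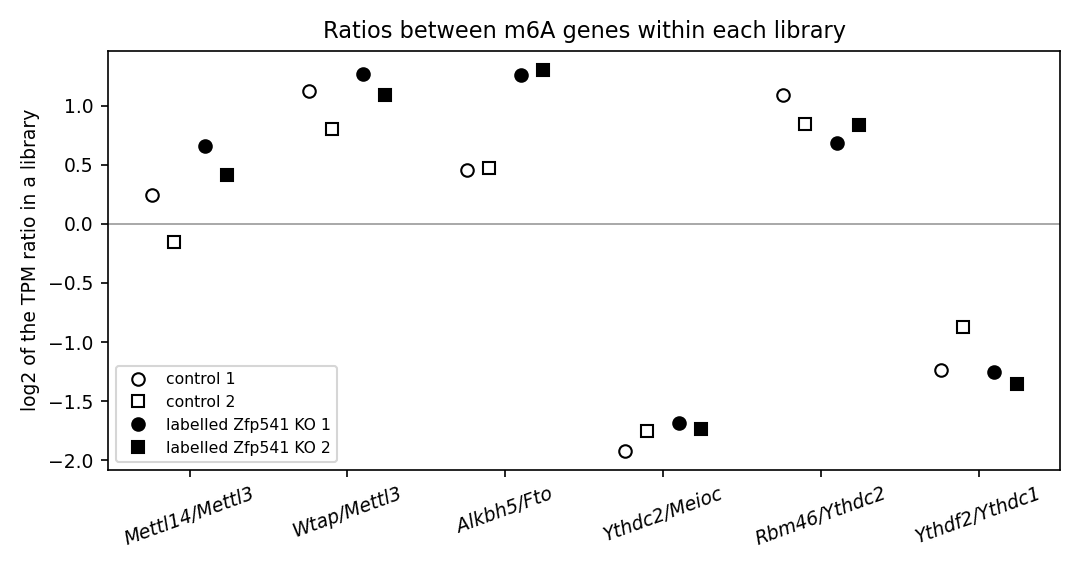
Log2 ratio between paired m6A genes within each library, taken as the difference of their log2(TPM + 1) values (open symbols for controls, filled symbols for libraries labelled *Zfp541* KO). The *Alkbh5*/*Fto* points stand for ratios of 1.38 and 1.40 in the controls and of 2.43 and 2.50 in the others, while *Wtap*/*Mettl3* overlaps and the *Mettl14*/*Mettl3*, *Ythdc2*/*Meioc* and *Rbm46*/*Ythdc2* differences change sign after length correction.

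The genes most like *Ythdc2* and *Meioc* in their course over the 4 libraries were sought among 9857 genes whose mean reached 10 TPM, by the Euclidean distance of centred log2(TPM + 1) values. For *Ythdc2* the nearest were *Mir17hg* (distance 0.0344), *Setd1a* (0.0357) and *Mier1* (0.0395). Of the other members, *Alkbh5* was at rank 42 for *Ythdc2*, and *Ythdc1* was at rank 31 and *Rbm46* at rank 98 for *Meioc*. *Mettl3* and *Fto* were far off, at ranks 2882 and 4190 for *Ythdc2* and 3219 and 3901 for *Meioc*, and *Wtap* and *Ythdf2* were at 1087 and 1074 for *Meioc* and 931 and 860 for *Ythdc2*. *Meioc* was at rank 195 for *Ythdc2*, and *Ythdc2* was at rank 252 for *Meioc*. With 4 libraries many genes share such a course, and these distances are a description.

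A wider list of 30 genes of the m6A pathway and its context gave the same lean with more exceptions. Of these, 29 were matched and tested, 0 passed the FDR in limma, and 7 were higher and 0 lower at an unadjusted p under 0.05 (10.7% of all genes were higher). Both libraries labelled *Zfp541* KO were above both controls for 20 genes and below them for 1, *Ahcy*, and 8 genes overlapped (38.6% of all genes were above and 12.1% below). The median log2 difference was 0.55. Under median-ratio scaling 11 of the 29 were above, against 22.6% of all genes, and 2 below, with a median of 0.23.

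Among 10 further writer genes and other methyltransferases 0 passed the FDR in limma, 8 did not overlap on the higher side (38.6% of all genes) and *Trmt112* and *Pcif1* overlapped. *Zc3h13*, which anchors the complex in the nucleus, was at 31.7 and 23.5 TPM in the controls, against 68.2 and 69.2 TPM in those labelled *Zfp541* KO, a log2 difference of 1.30 (SE 0.24, adjusted p = 0.310 from limma). *Cbll1*, which encodes the subunit HAKAI, was at 37.2 and 26.5 TPM against 67.4 and 69.0 TPM, a log2 difference of 1.09 (adjusted p = 0.310 from limma). Both differences exceeded that of any of the 10 members and stayed positive under every scaling tried. At the other end *Trmt112*, an activator of several methyltransferases, overlapped at 186 and 257 TPM and at 209 and 200 TPM.

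Other readers varied more between the controls. Of 9 further readers 6 did not overlap on the higher side (38.6% of all genes). *Ythdf3*, a cytoplasmic reader related to *Ythdf2*, was at 40.8 and 19.3 TPM in the controls, against 53.4 and 56.3 TPM in the other group, a log2 difference of 0.94 (SE 0.41, adjusted p = 0.383 from limma). *Igf2bp2* was near the limit of the filter, at 2.96 and 0.46 TPM and at 1.78 and 0.89 TPM, and overlapped. Of 7 partner and context genes of the readers 4 did not overlap on the higher side, a share near that of all genes (38.6%). The exonuclease *Xrn1*, which works with YTHDC2, was at 13.2 and 7.44 TPM in the controls, against 23.8 and 23.1 TPM in those labelled *Zfp541* KO, a log2 difference of 1.16 (SE 0.38, adjusted p = 0.324 from limma). *Nxf1*, the mRNA export receptor, overlapped at 260 and 154 TPM and at 226 and 245 TPM.

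The supply of the methyl donor held the single gene of the list that was lower in both libraries labelled *Zfp541* KO. *Mat2a*, which makes S-adenosylmethionine and whose own transcript is an m6A target, was at 246 and 288 TPM in the controls, against 429 and 399 TPM in those labelled *Zfp541* KO, a log2 difference of 0.64 (adjusted p = 0.320 from limma). *Ahcy*, which clears the S-adenosylhomocysteine that methylation leaves behind, was at 33.8 and 32.0 TPM in the controls, against 22.6 and 16.3 TPM in the other group, a log2 difference of -0.75 (SE 0.28, adjusted p = 0.349 from limma). Neither passed the FDR, and both kept their sign under every scaling tried.

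**Figure D3:**
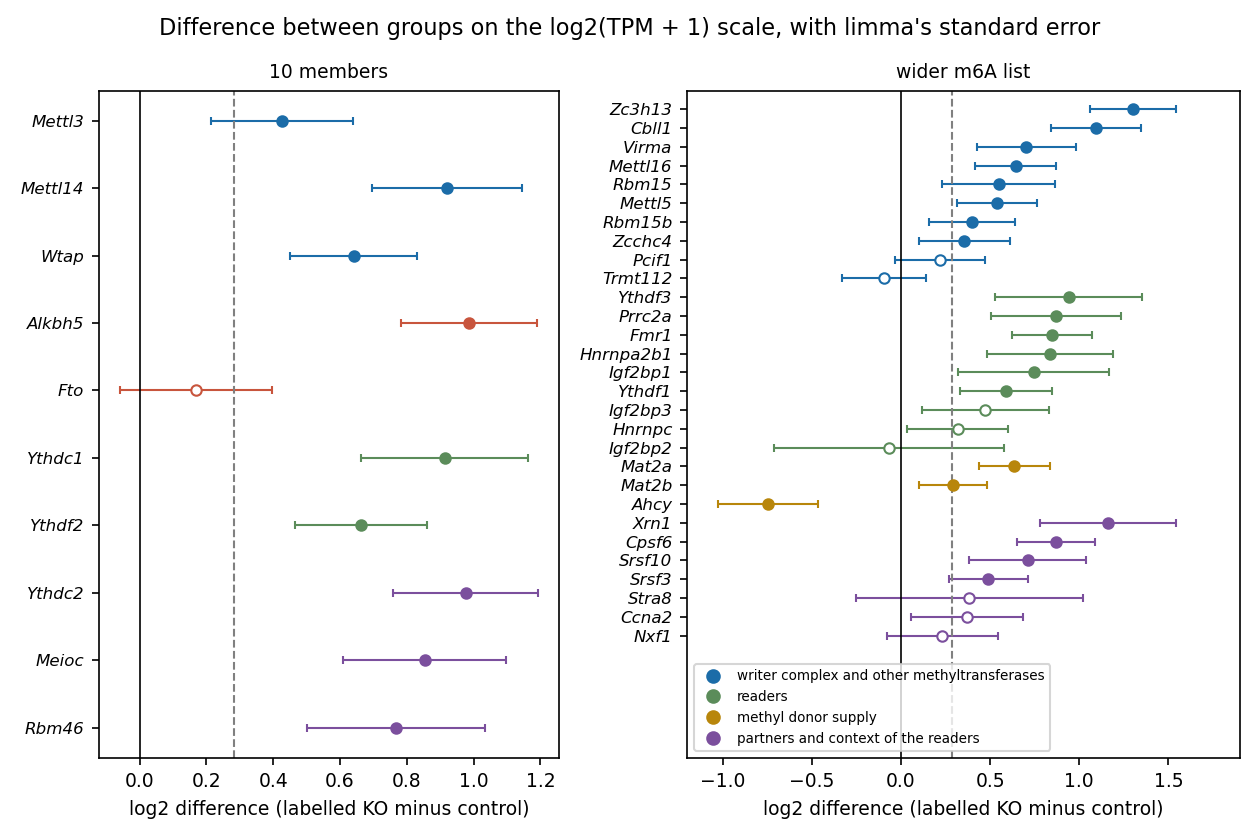
Log2 difference (libraries labelled *Zfp541* KO minus controls, log2(TPM + 1) scale) with limma's standard error for the 10 members and for 29 genes of the wider list, where filled points did not overlap between groups and the dashed line is the median of all genes (0.28). *Alkbh5* (0.99) is the highest member, *Fto* (0.17) is the lowest and changes sign with the scaling, and *Ahcy* (-0.75) is the wider gene lower in both libraries.

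Processing moved the sizes more than the signs. Over 13 alternative settings the 9 members other than *Fto* kept a positive difference, the lowest being 0.10 for *Mettl3* under median-ratio scaling. After median-ratio scaling the members' median was 0.48 and that of all genes -0.01, and after length correction the members' median was 0.60. These 9 also stood above the median of all genes in each setting, except that *Mettl3* was below it when control 1 was left out.

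**Figure D4:**
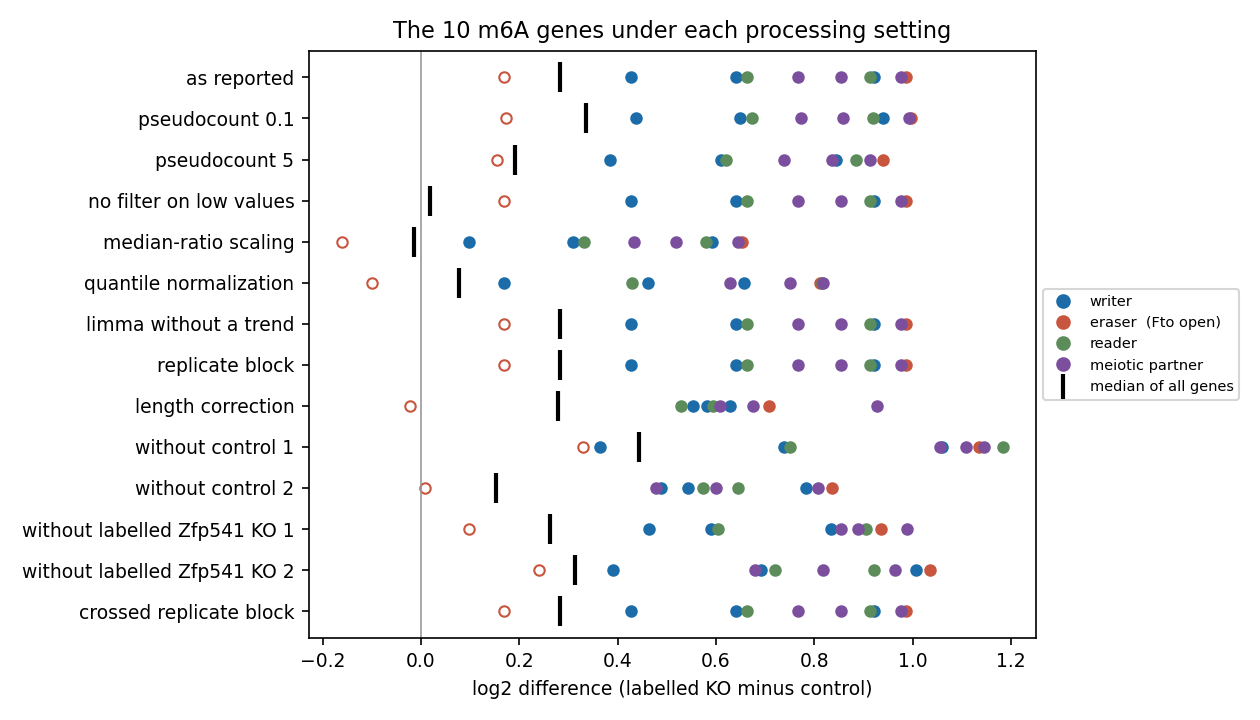
Log2 difference of each of the 10 m6A genes (points, coloured by role, *Fto* open) under the reported setting and each alternative, with the median of all tested genes as a vertical bar. Under median-ratio scaling *Fto* is at -0.16 and *Mettl3* at 0.10 while the other genes stay further above the bar, and with control 1 left out every member shifts upward except *Mettl3*.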

How the data were processed

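RNA-seq of sorted GFP-positive cells was compared between 2 *Zfp541*+/- samples and 2 samples labelled *Zfp541* KO, grouped by their labels. The authors deposited 1 TPM value per gene and sample; per the submitters' processing notes, Trim Galore 0.5.0, cutadapt 1.16, STAR 2.6.0a and RSEM 1.3.1 were used with mm10. TPM keeps no depth, and the differential test by RSEM named in the study's methods was not repeated, as the deposited values are not counts. The 14512 genes whose mean reached 1 TPM were fitted as log2(TPM + 1) in R 4.3.3 with limma 3.58.1. Each gene's variance was moderated towards a mean-variance trend over all tested genes. P-values were adjusted after Benjamini and Hochberg (FDR 0.05). The procedure was tested on simulated data in which genes varied independently and changes were 1 or more on the log2 scale. Every member's difference was smaller, so that test does not show the power to detect them. The log2(TPM + 1) scale understates changes of low genes. Ratios between members, as differences of log2(TPM + 1) within a library, were compared by exact two-sided permutation. The members and lists were chosen with earlier results of these data known. Named were all members and, in the wider list, the highest and lowest gene of each role and those separated by at least 1 on the log2 scale; marker genes were picked for naming after their values were seen. *Meiosin* was listed but not matched. Length correction used per-sample lowess on GENCODE M21 transcript length (99% of genes). Promoters were RefSeq's (GRCm38.p6). The genes nearest to *Meioc* are not reported here.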

Additional observations from a re-analysis of the deposited data

How the results depend on the processing

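Of the differences of single members, those of *Fto* alone changed sign, to -0.16 under median-ratio scaling, -0.10 under quantile normalization and -0.022 after length correction. The members' median was 0.48, 0.64 and 0.60 under these 3 settings and that of the wider list 0.23, 0.42 and 0.40. After length correction the *Mettl14*/*Mettl3* ratio difference was -0.029, *Ythdc2*/*Meioc* -0.067 and *Rbm46*/*Ythdc2* 0.32. Without the filter on low values 2 genes passed the FDR. Leaving out 1 library at a time, the number of genes past the FDR ranged from 0 to 6985 and that of members from 0 to 8, with a members' median of 0.59 to 1.06 and a wider-list median of 0.48 to 0.60. A library left alone in its group was assumed to vary like the other group. With the replicate block 0 genes were higher and 0 lower, and no call on a member changed. The numbers are only names here: deviations of same-numbered samples correlated at -0.16 across genes. With the numbers crossed as the block, chosen after the data were seen, 87 genes passed, 7 higher and 80 lower. The pseudocount (0.1 or 5) and the trend changed no direction and no call of a member. No depth limit can be given from TPM.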
